A study of Mus musculus with 22 samples.

Results

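The plexins, a neuropilin and semaphorins examined here are 10 genes of 47311 with a transcript in the files. They are the receptors Plxna1, Plxna2, Plxna3, Plxnb1, Plxnb2, Plxnc1 and Plxnd1, the co-receptor Nrp1, and the ligands Sema4a and Sema4d. The genes were chosen by name, and the set was drawn up because Plxnb2 and Plxnd1 were lower in the knockout CMP libraries, so the values of all members in the CMP comparison are given as a description with no test. The study asked how loss of Arid1a, a subunit of the BAF chromatin remodeling complex, alters hematopoietic stem and precursor cells in mice. All animals carried the floxed Arid1a f/f allele (exon 9 floxed) on a C57BL/6 background and all received poly(I:C) as 5 doses of 300 µg from 8 weeks of age onward. KO mice were Arid1a f/f;Mx1-Cre+, in which poly(I:C) switches on the interferon-inducible Mx1 promoter that drives Cre, and WT mice were their littermates of the same sex without the transgene (Arid1a f/f;Mx1-Cre-), so interferon induction was common to both groups. This transgene is not restricted to blood cells.

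RNA was taken 4 weeks after poly(I:C) from sorted bone marrow cells and sequenced in 22 libraries. Long-term hematopoietic stem cells (LT-HSC) came from 2 WT and 2 KO mice and were made with a kit for minute RNA amounts. The common myeloid (CMP), granulocyte-macrophage (GMP) and megakaryocyte-erythroid (MEP) precursors came from 6 further mice, 3 of each genotype, with 1 library of each precursor per mouse, and were made with a poly(A) kit. The kit and the stem cell against precursor comparison cannot be told apart, so LT-HSC libraries were never fitted with the others. Levels are given as TPM, a transcript abundance corrected for length and scaled to a fixed total, summed over the transcripts of a gene. Fold changes come from normalized counts on the log2 scale, with a false discovery rate (FDR) under 0.1 as the threshold.

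Plexins are transmembrane receptors whose intracellular domain acts on small GTPases of the Ras and Rap type and so loosens adhesion and the cytoskeleton. Semaphorins are their ligands, secreted or membrane bound, and neuropilins are co-receptors that bind class 3 semaphorins and vascular endothelial growth factor. First known from axon guidance, the family also directs the migration and contacts of blood cells, and SEMA4D was first described on lymphocytes.

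Library totals lay between 40804031 and 65930737 estimated counts. Arid1a itself had a KO against WT log2 fold change of -1.14 (adjusted p = 0.421) among the LT-HSC libraries, where both KO values lay below WT, of -0.22 (adjusted p = 0.0284) among CMP, -0.40 (adjusted p = 0.0246) among GMP and -0.14 (adjusted p = 0.0835) among MEP. A gene sum counts every exon and not only the deleted one. The sorted GMP, MEP and LT-HSC libraries carried their own markers. The summed TPM of 7 GMP genes such as Mpo and Elane was 31210 to 47000 in GMP and at most 4855 elsewhere. For 7 MEP genes such as Gata1 and Klf1 it was 3156 to 6130 in MEP and at most 2956 elsewhere. For 9 LT-HSC genes such as Procr and Hlf it was 1052 to 1657 in LT-HSC and at most 121.6 elsewhere. The LT-HSC libraries also held RNA of marker genes of other lineages, given further below. The WT LT-HSC library of mouse S245 stood apart, with at least 10 counts on 27191 genes against 18504 to 22407 in the other 3 LT-HSC libraries, and LT-HSC results are also given without it. On the TPM scale the median gene shifted between KO and WT by -0.39 (log2) for LT-HSC, 0.10 for CMP, -0.15 for GMP and 0.02 for MEP, whereas the normalization of counts reduces these shifts to between -0.15 and 0. Fold changes below are therefore those of the normalized counts. In bulk RNA, fewer cells of a type and less RNA per cell cannot be told apart.

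**Figure D1:**
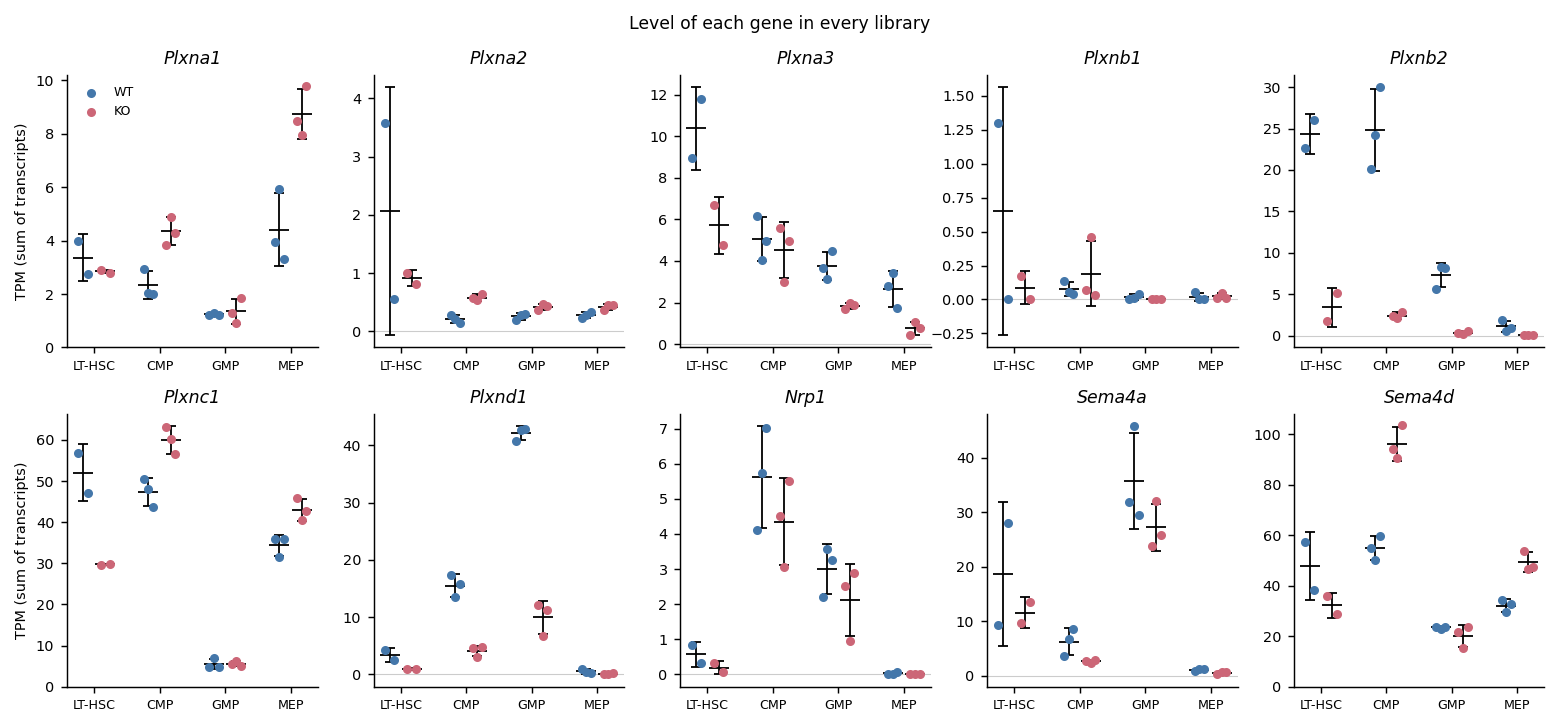
Each panel plots 1 gene, with its TPM in every library on a linear axis that differs between panels (blue points WT, red points KO, 2 libraries per genotype in LT-HSC and 3 in CMP, GMP and MEP), and the black bars give the mean and SD. In CMP the 3 KO libraries of Plxnb2 lie between 2.11 and 2.91 TPM and the 3 WT libraries between 20.2 and 30.0 TPM, while Sema4d in CMP is higher in all 3 KO libraries.

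Promoter sequences are shown for the 2 genes noted as lower in KO CMP and for Plxnc1, the most abundant plexin in CMP and MEP, whose KO values lay on the other side of WT there. RefSeq promoters (GRCm38.p6, 250 bases before to 50 bases after the start) were at hand for 9 of the 10 genes. Motifs of 4 factor families that the study considers in closed chromatin were searched on both strands. The letters for GATA factors were AGATAA and, as the other form, TGATAA. Those for PU.1 were GAGGAA and for RUNX factors TGTGGT, and C/EBP factors were searched with TTGCNNAA. Capitals mark the matches. Those shown are chr15:89180739-89181038 (minus strand), chr6:115994956-115995255 (minus strand) and chr10:94944796-94945095 (minus strand).
Plxnb2: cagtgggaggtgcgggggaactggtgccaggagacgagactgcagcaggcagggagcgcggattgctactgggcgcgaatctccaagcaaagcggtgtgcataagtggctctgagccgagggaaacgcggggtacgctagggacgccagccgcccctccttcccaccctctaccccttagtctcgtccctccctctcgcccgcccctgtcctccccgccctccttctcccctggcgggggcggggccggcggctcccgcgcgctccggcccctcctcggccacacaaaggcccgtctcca
Plxnd1: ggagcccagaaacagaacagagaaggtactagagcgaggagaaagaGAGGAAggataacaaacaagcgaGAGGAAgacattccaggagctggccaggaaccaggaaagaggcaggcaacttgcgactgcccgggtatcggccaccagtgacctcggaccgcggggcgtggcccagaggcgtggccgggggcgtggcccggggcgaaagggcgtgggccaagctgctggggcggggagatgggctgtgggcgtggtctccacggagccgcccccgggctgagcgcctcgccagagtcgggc
Plxnc1: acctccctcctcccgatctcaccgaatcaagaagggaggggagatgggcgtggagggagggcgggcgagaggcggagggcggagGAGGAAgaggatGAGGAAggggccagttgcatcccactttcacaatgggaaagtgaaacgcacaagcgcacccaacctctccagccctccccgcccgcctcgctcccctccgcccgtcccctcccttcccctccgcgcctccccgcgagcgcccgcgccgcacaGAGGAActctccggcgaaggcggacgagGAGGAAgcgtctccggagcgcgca
The Plxnb2 window holds none of these letters and neither does that of its other start (chr15:89173902-89174201, minus strand). That of Plxnd1 holds 2 PU.1 matches, starting at bases 47 and 70 of the window, and that of Plxnc1 holds 4, starting at bases 85, 97, 249 and 277. Of all 32851 promoters in the same table, 28.3% hold a PU.1 match, 18.6% a GATA match, 16.8% a RUNX match and 10.8% a C/EBP match. Among the other members, a GATA match was found in Plxna2, RUNX and C/EBP matches in Plxna3, a PU.1 match in Nrp1, PU.1 matches in 2 and a C/EBP match in 1 of the 4 Sema4a windows, a RUNX match in 1 of the 3 Sema4d windows, and none in Plxnb1. These windows are rich in G and C, at 70.3% for the first Plxnb2 window, 67.0% for Plxnd1 and 69.0% for Plxnc1, against a median of 52.7% over all promoters. A match is a run of letters and does not show that a factor binds.

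The WT precursors were compared first, to see where each receptor and ligand was expressed. Plexin RNA in GMP was mostly Plxnd1, in MEP mostly Plxnc1, and in CMP it was spread over Plxnc1, Plxnb2 and Plxnd1. Among the 9 plexin genes of the annotation, Plxnd1 made up 68.1% to 72.3% of the summed TPM in WT GMP, 14.6% to 17.7% in WT CMP and 0.46% to 2.03% in WT MEP. Plxnc1 made up 74.7% to 84.4% in WT MEP, 45.0% to 52.0% in WT CMP and 7.82% to 11.03% in WT GMP. Plxnb2 held 20.6% to 30.9% in WT CMP.

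These comparisons were fitted over the 9 WT libraries with the mouse as a block. The WT CMP libraries also enter the comparison that chose the members. A gene picked as lower in KO CMP tends to be high in WT CMP. The comparisons of Plxnb2 and Plxnd1 against CMP are therefore a description, although the counts below include them. Of all 18166 genes tested, 24.0% were lower and 19.9% higher in GMP than in CMP, 37.1% lower and 33.5% higher in MEP than in CMP, and 35.4% lower and 35.4% higher in GMP than in MEP. All 10 members passed the filter on low counts. Relative to CMP, 6 were lower and 2 higher in GMP, and 7 were lower and 2 higher in MEP. Plxnb1 is among the lower members in both but passed the filter only through its CMP libraries, so its calls carry no weight. Nrp1 is among those lower in MEP, where it had only 4 to 11 estimated counts per library. Between GMP and MEP, 3 were lower and 5 higher in GMP. Nrp1 is also among these 5 and passed the filter only through CMP and GMP, so its calls against MEP carry no weight. A called difference between these populations was thus common among all genes.

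Plxnd1 (chromosome 6, 115954811 to 115995005, minus strand of GRCm38), a receptor of class 3 semaphorins best known from vessel patterning, was at 40.7, 42.7 and 42.9 TPM in WT GMP, 13.5, 15.7 and 17.4 TPM in WT CMP and 0.197, 0.455 and 0.931 TPM in WT MEP. The 3 populations did not overlap. The log2 fold change was 1.42 (SE 0.11) in GMP and -4.99 (SE 0.15) in MEP, each against CMP. Between GMP and MEP it was 6.41 (SE 0.15, adjusted p = 6.48e-09). The order GMP, CMP, MEP held in 3 of 3 mice.

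Plxnb2 (chromosome 15, 89155549 to 89180788, minus strand), a receptor of class 4 semaphorins and of angiogenin, had another order. It was at 20.2, 24.2 and 30.0 TPM in WT CMP, at 5.64, 8.15 and 8.27 TPM in WT GMP and at 0.546, 0.967 and 1.92 TPM in WT MEP. CMP was highest in each mouse and the 3 populations did not overlap. Its log2 fold change was -1.51 (SE 0.26) in GMP and -4.05 (SE 0.31) in MEP, each against CMP. Between GMP and MEP it was 2.54 (SE 0.30, adjusted p = 6.77e-05), and 3.13 without mouse 300, whose MEP value was the highest of the 3.

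Plxnc1 (chromosome 10, 94790866 to 94944835, minus strand), the receptor of the membrane-anchored SEMA7A, was lowest in GMP among the 3 precursors. It was at 43.7, 48.1 and 50.4 TPM in WT CMP, 31.5, 35.9 and 35.9 TPM in WT MEP and 4.75, 4.86 and 6.91 TPM in WT GMP. The normalized counts of GMP were lower than those of CMP by a log2 fold change of -2.92 (SE 0.14, adjusted p = 1.49e-06). For MEP against CMP the log2 fold change was -0.14 with a 95% interval from -0.39 to 0.12 (adjusted p = 0.384), although the TPM of MEP was below that of CMP in each mouse.

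Plxna1 (chromosome 6, 89316314 to 89362620, minus strand), a partner of neuropilins and of class 6 semaphorins, was highest in MEP. It was at 3.33, 3.93 and 5.94 TPM in WT MEP, 1.99, 2.05 and 2.94 TPM in WT CMP and 1.23, 1.23 and 1.30 TPM in WT GMP. Values of the 3 populations did not overlap, and the log2 fold change was 1.44 (SE 0.12, adjusted p = 6.97e-06) in MEP against CMP and -0.82 (SE 0.12, adjusted p = 0.000871) in GMP against CMP. Plxna3 (chromosome X, 74329066 to 74344689, plus strand), of the same class, was at 4.04 to 6.16 TPM in WT CMP, 3.14 to 4.47 in WT GMP and 1.74 to 3.44 in WT MEP, and its populations overlapped between neighbours. MEP was lower than CMP by a log2 fold change of -0.84 (SE 0.12, adjusted p = 0.000295), while that of GMP against CMP was -0.27 (adjusted p = 0.124). Plxna3 in GMP against MEP had a log2 fold change of 0.58 (adjusted p = 0.00290), which an offset for transcript length reduced to 0.37 (adjusted p = 0.260).

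Plxna2 (chromosome 1, 194618218 to 194816869, plus strand) was at 0.140 to 0.331 TPM in the 9 WT precursor libraries. Its log2 fold change in MEP against CMP was 0.78 (adjusted p = 0.0690), a call that was lost without mouse 305 (0.73, adjusted p = 0.201), without mouse 309 (0.50, adjusted p = 0.303) and with the length offset (0.67, adjusted p = 0.127). Plxnb1 (chromosome 9, 109095389 to 109119917, plus strand), the best known receptor of SEMA4D, was close to absent. It had 11 to 21 estimated counts in WT CMP, 1 to 3 in WT GMP and 0 to 2 in WT MEP, and its fitted changes are not given. Its call in GMP against CMP was lost with the length offset (adjusted p = 0.129), with DESeq2 (adjusted p = 0.108) and without mouse 309 (adjusted p = 0.107). Its exons overlap those of the antisense gene Gm7628, and the strand of counting is not given in the sources used here.

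Nrp1 (chromosome 8, 128358604 to 128503363, plus strand), the co-receptor, was at trace level in WT MEP. It was at 4.10, 5.73 and 7.001 TPM in WT CMP, 2.20, 3.25 and 3.56 TPM in WT GMP and 0.0160, 0.0211 and 0.0583 TPM in WT MEP. The MEP values rest on 4 to 11 estimated counts per library, against 985 to 1343 in WT CMP. GMP was lower than CMP by a log2 fold change of -0.74 (SE 0.13, adjusted p = 0.00218). Nrp1 passed the filter of this fit only through CMP and GMP. The fitted value of -7.18 for MEP against CMP rests on near-zero counts and is given as a description.

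The ligand Sema4a (chromosome 3, 88435959 to 88461182, minus strand), a membrane semaphorin of immune cells that binds PLXND1 among others, followed the order of Plxnd1. It was at 29.5, 32.0 and 45.8 TPM in WT GMP, 3.63, 6.69 and 8.59 TPM in WT CMP and 0.900, 1.18 and 1.32 TPM in WT MEP. No 2 populations overlapped, with log2 fold changes of 2.75 (SE 0.22, adjusted p = 2.4e-05) in GMP against CMP and -2.33 (SE 0.26, adjusted p = 5.36e-05) in MEP against CMP. Sema4d (chromosome 13, 51685529 to 51793747, minus strand), a ligand of class B plexins and of CD72, was the highest member in WT CMP by its mean, although its range there met that of Plxnc1. It was at 50.2, 54.8 and 59.8 TPM in WT CMP, 29.4, 32.6 and 34.3 TPM in WT MEP and 23.0, 23.7 and 23.8 TPM in WT GMP. Its log2 fold change was -1.08 (SE 0.06, adjusted p = 2.87e-06) in GMP and -0.48 (SE 0.06, adjusted p = 9.37e-05) in MEP, each against CMP. Of the summed TPM of 20 semaphorin genes, Sema4d made up 72.4% to 76.0% in WT MEP and 62.2% to 65.9% in WT CMP, while in WT GMP Sema4a made up 40.6% to 51.0% and Sema4d 25.6% to 32.7%.

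**Figure D2:**
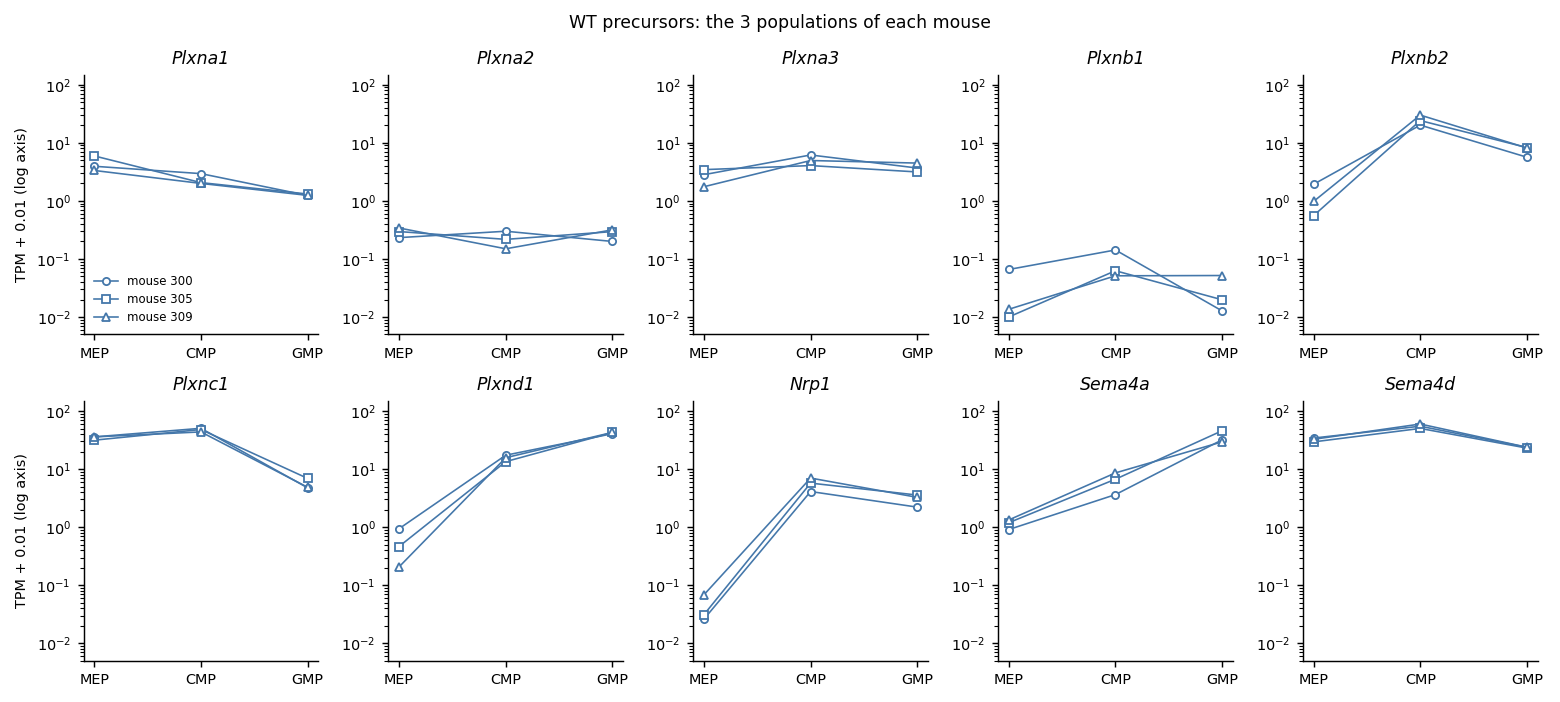
Each panel plots 1 gene in the 9 WT precursor libraries, as TPM plus 0.01 on a log axis, with lines joining the MEP, CMP and GMP libraries of 1 mouse. Plxnd1 and Sema4a climb from MEP to CMP to GMP in all 3 mice, whereas Plxnb2 is highest in CMP and Plxnc1 is low in GMP.

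In WT LT-HSC, which used another kit and is set beside the precursors without a test, the members were all detected. Plxnc1 was at 56.9 and 47.1 TPM, Sema4d at 57.3 and 38.3 TPM and Plxnb2 at 22.6 and 26.0 TPM. The 2 libraries disagreed for Sema4a (9.41 and 28.1 TPM), Plxna2 (3.57 and 0.561 TPM) and Plxnb1 (1.30 and 0.00555 TPM), where the first value in each case is that of mouse S245. Plxna3 was at 8.96 and 11.8 TPM, Plxnd1 at 4.33 and 2.56 TPM, Plxna1 at 3.98 and 2.74 TPM and Nrp1 at 0.827 and 0.320 TPM.

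The KO libraries were then set against WT in each population. Plxnb2 and Plxnd1 were lower in KO in CMP, the comparison that singled them out, and both also fell in GMP and MEP. The GMP and MEP libraries came from the same mice, and earlier results of these data were known when the members were chosen. The falls there are thus not an independent test. Plxna2 rose in both GMP and MEP and Plxna3 fell in both, while Plxna1, Plxnc1 and Sema4d rose and Sema4a fell in MEP. In LT-HSC, Plxnb2 alone passed the threshold.

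As a description of CMP, Plxnb2 was at 2.11, 2.36 and 2.91 TPM in KO against 20.2 to 30.0 TPM in WT, a log2 fold change of -3.42 (SE 0.18). Plxnd1 was at 3.10, 4.55 and 4.74 TPM in KO against 13.5 to 17.4 TPM in WT, a log2 fold change of -2.23 (SE 0.09). In both genes every KO library lay below every WT library, as in 10.6% of all genes tested. Just outside these 2 in the same comparison stood Sema4a, at 2.43, 2.73 and 3.0004 TPM in KO and 3.63 to 8.59 TPM in WT, with a log2 fold change of -1.66 (SE 0.29). Sema4d was on the other side, at 90.7, 94.2 and 104 TPM in KO against 50.2 to 59.8 TPM in WT (log2 fold change 0.72, SE 0.08). Plxnc1 was at 56.5 to 63.2 TPM in KO and 43.7 to 50.4 TPM in WT (log2 fold change 0.25, SE 0.06), and Plxna1 at 3.84 to 4.89 and 1.99 to 2.94 TPM (log2 fold change 0.96, SE 0.16). Plxna2 had a log2 fold change of 1.76 (SE 0.26) at 0.534 to 0.644 TPM in KO. Ranges on the TPM scale overlapped for Plxna3 (log2 fold change -0.43), Nrp1 (-0.47) and Plxnb1 (-0.52, or 0.59 with the length offset). Plxnb1 had only 8 to 21 estimated counts per CMP library, and its change of sign moves the member median that follows. The median log2 fold change of the 10 members was -0.45 and that of all 17214 genes tested was 0.00, but with the length offset the median of the members was -0.02. Of those genes 12.8% were lower and 10.6% higher.

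In GMP, 9 of the 10 members passed the filter, Plxnb1 having at most 3 estimated counts per library. Of these 9, 3 fell (Plxnb2, Plxnd1 and Plxna3), 1 rose (Plxna2) and 5 did not pass the test, against 16.3% of 16383 genes lower and 17.5% higher. Plxnb2 was at 0.215, 0.360 and 0.649 TPM in KO GMP and 5.64, 8.15 and 8.27 TPM in WT GMP. The KO values rest on 55 to 169 estimated counts per library, and all lay far below the lowest WT value. Its log2 fold change was -3.81 (SE 0.33, adjusted p = 6.06e-05). Plxnd1 was at 6.70, 11.2 and 12.1 TPM in KO GMP and 40.7, 42.7 and 42.9 TPM in WT GMP, without overlap, for a log2 fold change of -1.98 (SE 0.11, adjusted p = 5.63e-06). Plxna3 fell from 3.14, 3.67 and 4.47 TPM to 1.70, 1.86 and 1.97 TPM, also without overlap (log2 fold change -1.12, SE 0.16, adjusted p = 0.000787). On the TPM scale, every KO library lay below every WT library in 30.8% of all genes tested in GMP, and above in 9.92%.

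Plxna2 rose in GMP from 0.190, 0.286 and 0.307 TPM to 0.360, 0.437 and 0.462 TPM. Its KO values all exceeded WT, with a log2 fold change of 1.51 (SE 0.26, adjusted p = 0.00262) in counts that the length offset reduced to 0.82 (adjusted p = 0.04996). Its transcripts annotated as protein coding gave only part of the TPM, between 11.4% and 66.6% over the 8 groups. Plxna1, Plxnc1, Nrp1, Sema4a and Sema4d in GMP had log2 fold changes between -0.35 and 0.11 and adjusted p values between 0.502 and 0.832. For Sema4d, at 15.3, 21.7 and 23.7 TPM in KO and 23.0, 23.7 and 23.8 TPM in WT, the 95% interval of the log2 fold change ran from -0.40 to 0.18. The Plxnc1 difference of 0.11 became 0.28 (adjusted p = 0.0820) without the WT library of mouse 305.

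In MEP, 8 members passed the filter, all but Nrp1 and Plxnb1. Of these 8, 4 fell and 4 rose, against 15.4% of 15777 genes lower and 14.0% higher. A member near 0 in both genotypes was left out by that filter. On the TPM scale, every KO library lay below every WT library in 15.8% of all genes tested in MEP, and above in 18.5%. Plxnb2 was at 0.103, 0.114 and 0.139 TPM in KO MEP and 0.546, 0.967 and 1.92 TPM in WT MEP. All KO values lay below WT, on 24 to 29 against 113 to 381 estimated counts, with a log2 fold change of -3.23 (SE 0.35, adjusted p = 0.000519). Plxna3 fell from 1.74, 2.81 and 3.44 TPM to 0.436, 0.780 and 1.04 TPM, without overlap (log2 fold change -1.90, SE 0.17, adjusted p = 0.000193).

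Plxnd1 was at 0.0424, 0.0953 and 0.280 TPM in KO MEP and 0.197, 0.455 and 0.931 TPM in WT MEP. These ranges overlapped in TPM and not in normalized counts, and the log2 fold change was -1.59 (SE 0.36, adjusted p = 0.0158) or, with the length offset, -2.06 (adjusted p = 0.103). Sema4a was at 0.290, 0.722 and 0.727 TPM in KO MEP and 0.900, 1.18 and 1.32 TPM in WT MEP, with 13 to 53 and 58 to 84 estimated counts. KO lay below WT throughout, but the log2 fold change of -1.17 (SE 0.42, adjusted p = 0.0814) passed the threshold narrowly. The call was lost when the libraries of mice 300, 301, 304, 305 or 309 were left out in turn (-0.78 to -1.33, adjusted p from 0.105 to 0.155) and with the length offset (-0.95, adjusted p = 0.119).

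The 4 members that rose in MEP were Sema4d, Plxna1, Plxna2 and Plxnc1. Sema4d was at 46.5, 47.5 and 53.8 TPM in KO MEP and 29.4, 32.6 and 34.3 TPM in WT MEP, without overlap (log2 fold change 0.55, SE 0.08, adjusted p = 0.00154). Plxna1 was at 7.97, 8.49 and 9.78 TPM in KO and 3.33, 3.93 and 5.94 TPM in WT, again without overlap (log2 fold change 0.70, SE 0.10, adjusted p = 0.00162). Its exons overlap the antisense gene Gm26811, which had at most 20.5 estimated counts in a library. Plxnc1 rose by less, from 31.5 to 35.9 TPM in WT to 40.5 to 45.8 TPM in KO (log2 fold change 0.29, SE 0.07, adjusted p = 0.0198). Plxna2 rose at low level, with 0.361 to 0.453 TPM in KO and 0.223 to 0.331 TPM in WT (log2 fold change 0.91, SE 0.19, adjusted p = 0.0123), a call that the length offset ended (0.57, adjusted p = 0.132). Nrp1 had 4 to 6 estimated counts per library in KO MEP and 4 to 11 in WT MEP, at which a difference was not detectable.

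In LT-HSC all 10 members passed the filter, and 1 fell and 0 rose, against 0.0528% of 22733 genes lower and 0.0264% higher. An unadjusted p under 0.05 was reached by 1180 of these 22733 genes, close to the share that this threshold passes when no gene differs. Plxnb2 was at 1.74 and 5.12 TPM in KO and 22.6 and 26.0 TPM in WT. Both KO values lay below both WT values, as in 27.6% of all genes tested. The log2 fold change of Plxnb2 was -2.49 (SE 0.41, adjusted p = 0.0964). With a replicate block it was -2.62 (adjusted p = 0.00338), and with the length offset it was -2.57 and no longer passed (adjusted p = 0.171). Without the WT library of mouse S245 it was -2.65, and without that of mouse S269 it was -2.33. Leaving out a library here leaves 1 in its group, whose spread is then not measured, so only the fold change is given. Leaving out the KO library of mouse S270, the higher of the KO pair, gave -3.29, and leaving out that of mouse S244 gave -1.94.

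Plxnd1 was at 0.883 and 1.02 TPM in KO LT-HSC and 2.56 and 4.33 TPM in WT LT-HSC. The ranges did not overlap, but the log2 fold change of -2.05 (SE 0.76) had an adjusted p of 0.876. Without mouse S245 the log2 fold change was -2.39. Plxnc1 was at 29.7 TPM in both KO libraries and at 47.1 and 56.9 TPM in WT. Its fold change of normalized counts was smaller (log2 -0.48, SE 0.30, adjusted p = 0.876, and -0.50 without mouse S245). Sema4a went from -0.48 (adjusted p = 0.883) to -1.21 without mouse S245, and to 1.11 without the other WT mouse. Sema4d had a log2 fold change of -0.08 with a 95% interval from -0.65 to 0.50. The intervals of Plxna2, Plxnb1 and Nrp1 spanned more than 3 log2 units, and those of Plxna1 and Plxna3 ran from -0.51 to 0.87 and from -1.56 to -0.04. The median log2 fold change of the members was -0.64 and that of all genes -0.16.

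**Figure D3:**
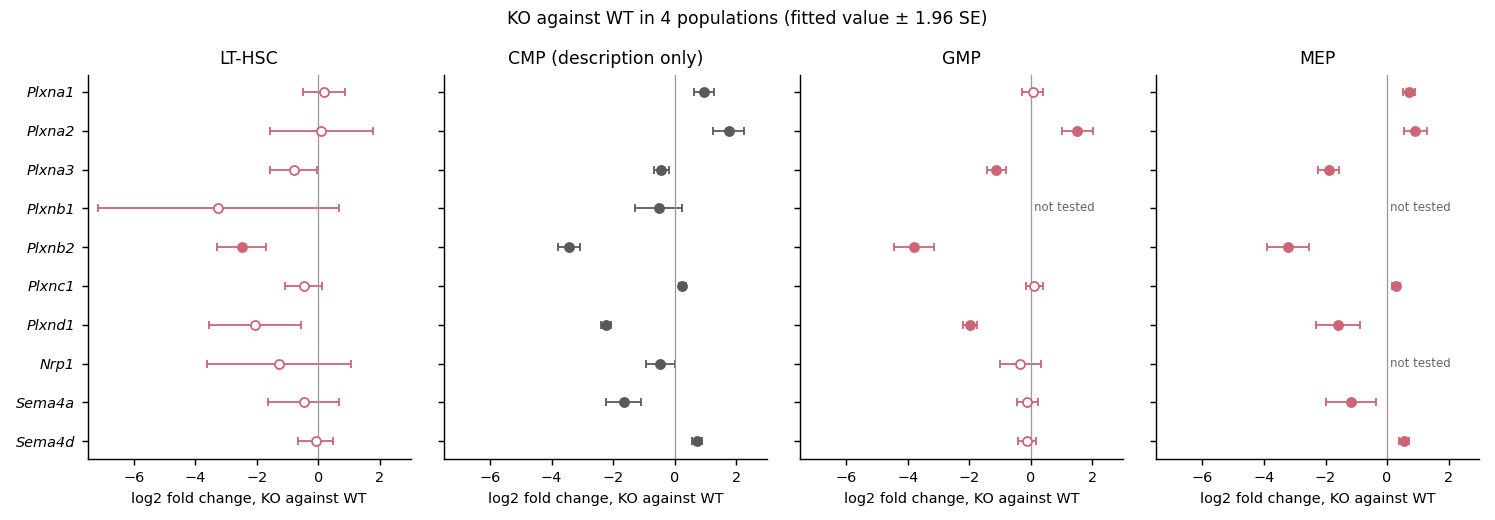
The log2 fold change of each gene, KO against WT, is plotted by population, where bars span the approximate 95% interval of the fit, filled red points passed an FDR of 0.1, open points did not, and grey points in CMP carry no test. Plxnb2 lies between -3.81 and -2.49 in the 4 populations, and Plxna1 and Sema4d lie to the right of 0 in CMP and MEP.

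Whether the KO effect differed between MEP and GMP was tested directly in their 12 libraries with the mouse as a block. Of 18268 genes, 13.7% had a lower and 8.94% a higher log2 fold change in MEP than in GMP. Of the 9 members tested, 2 were lower (Plxna3 and Sema4a), 2 higher (Plxna1 and Sema4d) and 5 did not pass. Sema4d differed by 0.65 (SE 0.14, adjusted p = 0.0101), with KO effects of 0.55 in MEP and -0.11 in GMP. For Sema4a the difference was -1.14 (SE 0.30, adjusted p = 0.0283), which the length offset reduced to -0.74 (adjusted p = 0.135). The Plxna1 difference of 0.61 (SE 0.17, adjusted p = 0.0382) was no longer past the threshold without mouse 304, 308 or 309 (0.49 to 0.56, adjusted p from 0.123 to 0.131). Plxna3 differed by -0.82 (SE 0.24, adjusted p = 0.0412), and this call was lost without mouse 301 (-0.64, adjusted p = 0.168), without mouse 308 (-0.82, adjusted p = 0.107) and with the length offset (-1.06, adjusted p = 0.130).

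No difference between MEP and GMP passed for Plxnb2 (0.65, 95% interval from -0.39 to 1.68, adjusted p = 0.483) or Plxnd1 (0.36, 95% interval from -0.31 to 1.02, adjusted p = 0.555). These intervals leave room for a KO effect up to 1.68 log2 units smaller in MEP for Plxnb2. Without mouse 300, the Plxnb2 difference was 1.14 (adjusted p = 0.0929).

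The makeup of plexin RNA is described next by TPM, with no test. The 9 plexin genes summed to 56.3 to 62.7 TPM in WT GMP and 16.6 to 21.5 TPM in KO GMP, and the share of Plxnd1 was 68.1% to 72.3% in WT and 40.4% to 56.4% in KO. In CMP, whose values chose 2 of the members, the sum was 92.4 to 98.0 TPM in WT and 74.4 to 80.5 TPM in KO, with Plxnc1 at 45.0% to 52.0% of it in WT and 76.0% to 80.8% in KO. The MEP sum was 42.2 to 45.8 TPM in WT and 50.2 to 55.3 TPM in KO, of which Plxna1 held 7.83% to 14.1% and 15.4% to 18.02%. In LT-HSC the sum was 91.4 and 104.6 TPM in WT and 43.8 and 44.8 TPM in KO, on a TPM scale whose median gene was itself shifted by -0.39.

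**Figure D4:**
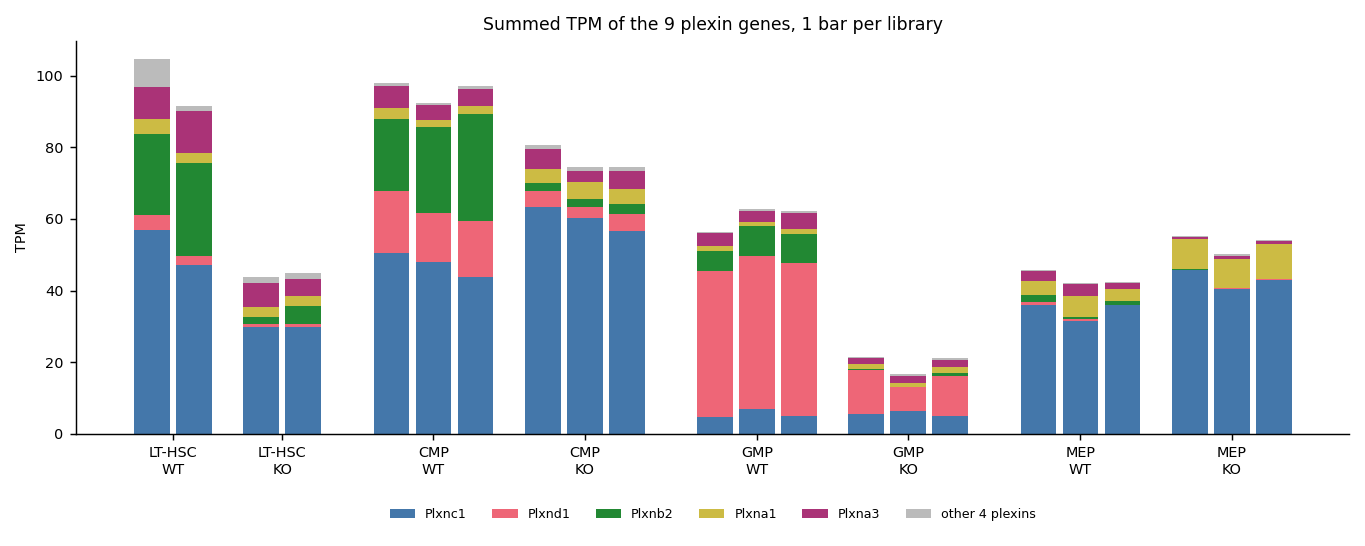
Stacked bars give the TPM of the plexin genes in each library, 1 bar per library on a linear axis from 0, grouped by population and genotype. Plxnd1 fills most of each WT GMP bar, Plxnc1 most of each MEP bar, and the Plxnb2 segment seen in WT LT-HSC and WT CMP is narrow in KO.

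Several members owed part of their TPM to transcripts not annotated as protein coding. Protein-coding transcripts gave 36.7% to 52.4% of the group means of Plxnd1, and 26.8% to 36.0% of those of Plxna3. The corresponding shares were 77.9% to 100% for Plxnb2, 82.4% to 99.2% for Plxnc1, 64.8% to 95.6% for Sema4d and 35.9% to 78.2% for Sema4a. The retained-intron transcript Plxnd1-204 held 37.3% to 40.7% of the gene in WT GMP and 39.8% to 45.5% in KO GMP. On protein-coding transcripts alone Plxnd1 was at 19.7 TPM in WT GMP and 4.60 TPM in KO GMP by the mean. The single transcript Plxnb2-202 carried 18.8 TPM of the WT CMP mean and 1.78 TPM of the KO CMP mean.

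Other genes of the pathway were counted from a list of 68, split by role. In GMP, 52 were tested, 17 fell and 12 rose, where 16.3% of all genes fell and 17.5% rose. Met, the hepatocyte growth factor receptor that pairs with class B plexins, fell from 7.44 ± 2.11 to 1.44 ± 0.440 TPM (SD, n = 3, log2 fold change -2.57, adjusted p = 5.76e-05). Mical3, of the flavoprotein oxidases that act on actin, fell from 6.19 ± 0.653 to 1.79 ± 0.211 TPM (log2 fold change -2.06, adjusted p = 1.83e-05). Rnd1, a GTPase that binds plexins, rose from 2.86 ± 0.571 to 9.17 ± 2.98 TPM (log2 fold change 1.91, adjusted p = 0.000617), and Sema4c rose from 1.33 ± 0.168 to 2.75 ± 0.774 TPM (log2 fold change 1.62, adjusted p = 0.00158). In all 4 of these genes KO and WT did not overlap in TPM. Of all genes tested in GMP, 30.8% lay wholly below WT and 9.92% wholly above. The 4 were named for their large changes, so their separation adds little. Nrp2, the other neuropilin, named after its values were seen, fell in GMP from 1.26 ± 0.421 to 0.151 ± 0.0271 TPM (log2 fold change -2.94, adjusted p = 9.46e-05). In CMP, as a description, the log2 fold change was -3.62 for Met, -1.26 for the integrin gene Itga1 and -1.18 for Ang, the angiogenin gene. Cd72, whose product binds SEMA4D, was on the other side in CMP, at 27.4 ± 4.48 TPM in WT and 67.1 ± 23.4 TPM in KO (log2 fold change 1.13). Nrp2 and Mical3 in CMP, added after their values were seen, had log2 fold changes of -2.47 and -0.65.

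In MEP, 44 of the 68 were tested, 7 fell and 5 rose, shares near the 15.4% lower and 14.0% higher of all genes. Vegfa, the vascular endothelial growth factor that neuropilins bind, fell from 12.99 ± 1.15 to 1.77 ± 0.0842 TPM (SD, n = 3, log2 fold change -2.93, adjusted p = 3.47e-05). Gipc1, an adaptor that binds the tail of neuropilin and plexins, fell from 33.3 ± 4.53 to 19.9 ± 1.89 TPM (log2 fold change -0.77, adjusted p = 0.00344), Mical3 from 17.2 ± 1.30 to 12.5 ± 1.51 TPM (log2 fold change -0.56, adjusted p = 0.001005) and Limk1, a kinase of cofilin, from 6.27 ± 1.24 to 4.65 ± 0.484 TPM (log2 fold change -0.45, adjusted p = 0.0418). The 5 that rose, named after their values were seen, were Sema3c, Sema7a, Pak1 (log2 fold change 0.40), Arhgef12 (0.35) and Rap1b (0.16). Sema3c had 1 to 7 estimated counts per library in WT MEP and 49.6 to 64 in KO MEP. For Sema7a these were 1 to 11 and 24 to 33. Both genes passed the filter only through their KO libraries, so their calls carry no weight. Sema7a, the ligand of PLXNC1, stayed low in MEP at 0.194 to 0.233 TPM in KO. In CMP, 24 of 59 were lower and 6 higher, beside 12.8% and 10.6% of all genes, and in LT-HSC 0 of 64 were called by edgeR. DESeq2 called 1 in LT-HSC, Crmp1, as did the fit with a replicate block (adjusted p = 0.0779). The median log2 fold change of the pathway list was -0.29 for CMP, -0.25 for GMP, 0.01 for MEP and -0.38 for LT-HSC.

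Levels of Plxnb2 and Plxnd1 were compared with all 12790 genes with a mean of at least 1 CPM (counts scaled by library size) over the 18 precursor libraries, as a description in which the points share mice, populations and genotype. The genes most like Plxnb2 were Klk8 (Pearson r = 0.985), Kank2 (0.974), Sh3pxd2a (0.970), Rab11fip5 (0.969) and AI661453 (0.963). Klk8, a secreted serine protease, had mean levels of 48.1 TPM in WT CMP, 2.41 in KO CMP, 19.4 in WT GMP and 0.320 in KO GMP. Those most like Plxnd1 were Hlx (0.991), Msantd3 (0.988), Nlrc4 (0.987), Rapgef5 (0.986) and Pde4dip (0.986). Hlx, a homeobox factor, was at 12.4 TPM in WT GMP and 5.97 TPM in KO GMP. Among the members, Plxnb2 was most like Plxna3 (r = 0.91), and Plxnd1 most like Nrp1 (0.90) and Sema4a (0.89).

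Markers of other cell types moved with genotype in the same libraries. Of 7 basophil and mast cell genes, 6 were called lower in KO GMP and 0 higher, and their summed TPM was 781 to 1246 in WT GMP and 127 to 176 in KO GMP. All 4 eosinophil genes were lower in KO GMP, at a sum of 3895 to 8897 TPM in WT and 1085 to 2167 TPM in KO. The sum of 8 monocyte and macrophage genes was 1367 to 1639 in WT GMP and 970 to 1190 in KO GMP, of which Ly6c2 alone made 1208 and 882 by the mean. Of these 8 genes 3 were lower and 3 higher in KO GMP, Adgre1 most of all, at 4.14 TPM in WT and 38.3 TPM in KO (log2 fold change 3.37). The sum of 7 GMP genes was 31210 to 36760 in WT and 41700 to 47000 in KO. In CMP, 8 erythroid precursor genes summed to 39.2 to 76.9 TPM in WT and 312 to 493 TPM in KO, and in MEP to 235 to 472 and 563 to 845 TPM. The 7 GMP genes summed in CMP to 4006 to 4855 TPM in WT and 1797 to 2771 TPM in KO (3 lower, 0 higher), and 4 of the 7 basophil and mast cell genes were lower in KO CMP. In LT-HSC the erythroid sum was 636 and 1122 TPM in WT and 1549 and 1773 TPM in KO, and the eosinophil sum was 43.8 and 230 TPM in WT and 241 and 3496 TPM in KO. The sum of 6 neutrophil genes was 364 and 2344 TPM in WT LT-HSC and 365.5 and 365.6 TPM in KO LT-HSC. That of 6 dendritic genes was 486 and 1024 TPM in WT LT-HSC and 122 and 347.5 TPM in KO LT-HSC. For 5 T cell genes it was 72.8 and 177 TPM in WT LT-HSC and 101 and 104 TPM in KO LT-HSC. Endothelial genes, for Nrp1 and Plxnd1 are also known from vessels, summed to 61.5 to 68.2 TPM in WT GMP and 44.2 to 47.3 TPM in KO GMP. Of this sum, Pecam1 alone made 62 and 45.4 TPM by the mean. The endothelial gene Cdh5 was at a mean of 0.0131 TPM in WT GMP and 0.0107 TPM in KO GMP, and at 0 in all WT MEP libraries. The part of these cell types in the changes of the plexins and semaphorins was not tested.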

How the data were processed

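RNA-seq of 22 libraries was deposited as kallisto abundance tables per transcript (the authors used kallisto on Ensembl 84 transcripts of GRCm38, and DESeq2). Each table holds the estimated count, the TPM and the effective length that the authors deposited. Estimated counts and TPM were summed per gene, and count sums were rounded to whole numbers. Because kallisto divides reads among similar transcripts, sums per gene are firmer than values per transcript. The effective length entered only the length offset, an alternative that corrects counts for the mean transcript length.

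Differences were tested with edgeR 4.0.16 in R 4.3.3 (quasi-likelihood F-test, TMM normalization, filterByExpr) and adjusted by Benjamini-Hochberg over all genes, with an FDR threshold of 0.1. The 95% intervals are approximate, from the SE. KO was compared with WT within each population. WT populations and the difference of effects were fitted with the mouse as a block. The labels give the same number to 3 libraries, read here as 1 mouse. Deviations had a median r of 0.331 between libraries of the same number and -0.222 between those of other numbers. Other settings tried were DESeq2-style size factors, genes of any count, the length offset, DESeq2 1.42.0, a replicate block or none, and leaving out each replicate. The WT and KO pairs of that block come from column order in a supplementary table, not from the labels. Precursor libraries of such a pair shared deviations too (r from 0.112 to 0.636, against -0.517 to 0.262 for other WT and KO pairs). The main KO fits leave this pairing out. The fits were tried on simulated data. There the share of false calls exceeded the FDR threshold in the KO fits and in the test of MEP against GMP. Most small changes in LT-HSC were missed.

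The members and lists were chosen with earlier results of these data known. Named were all members, in each population up to 4 pathway genes with the largest called change at a mean of at least 1 TPM, and the 5 genes most like Plxnb2 and Plxnd1. The 18 precursor libraries come from 6 mice and the 4 LT-HSC libraries from 1 mouse each, so within a population the libraries are separate mice.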

Additional observations from a re-analysis of the deposited data

Results flagged for a closer look

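The KO effect differed between MEP and GMP for 4 members, by a test of the difference itself (edgeR, mouse as a block, adjusted over all genes). The effect in MEP less that in GMP was 0.61 for Plxna1, -0.82 for Plxna3, -1.14 for Sema4a and 0.65 for Sema4d on the log2 scale. Of all genes 13.7% were lower and 8.94% higher in this test. The Plxna1 call was lost without mouse 304, 308 or 309, that of Plxna3 without mouse 301 or 308 and with the length offset, and that of Sema4a with the length offset. The causes were not tested.

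For Plxnc1 every KO library lay below every WT library in LT-HSC (log2 fold change -0.48, adjusted p = 0.876) and above it in CMP (0.25) and MEP (0.29). On the same TPM scale, 27.6% of all genes lay wholly below in LT-HSC, where the median gene was shifted by -0.39, and 25.7% lay wholly above in CMP and 18.5% in MEP. The difference between these populations was not tested, LT-HSC was made with another kit, and each group has 2 or 3 libraries.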

How the results depend on the processing

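Of 622 values of single members outside CMP under an alternative, 595 kept their call, 23 no longer passed, 4 newly passed and 0 were called in opposite directions. Values that were not called could change sign, as Sema4a in LT-HSC from -0.48 to 1.11 without WT mouse S269. With the length offset, 0 members were lower in LT-HSC, 2 lower in MEP, 1 higher in WT MEP against CMP and 0 lower in the test of MEP against GMP, and the CMP median was -0.02 in place of -0.45. Plxnb1, with 8 to 21 estimated counts per CMP library, went from -0.52 to 0.59 in CMP with that offset, and its change of sign moves this median. The cause of the other changes was not tested. In LT-HSC, 1 pathway gene was lower with no filter, with DESeq2 and with the replicate block, against 0. With the replicate block the Plxnb2 change in LT-HSC was -2.62, and no member call changed under a block or without one.

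Leaving out 1 replicate at a time gave 1 to 3 members lower in LT-HSC (3 without WT mouse S245), 1 to 2 higher in GMP, 3 to 4 lower in MEP, 1 to 2 higher in WT MEP against CMP, and 1 to 2 lower and 1 to 3 higher in the test of MEP against GMP. The CMP median ranged from -0.53 to -0.30. Pathway genes numbered 0 to 3 lower and 0 to 2 higher in LT-HSC (3 and 2 without WT mouse S269), and 3 to 6 higher in MEP (3 without mouse 300, 301, 304 or 309). All genes called in LT-HSC numbered 18, against 204 with DESeq2, 115 with the replicate block, 562 without WT mouse S245 and 2516 without WT mouse S269. Where a group was left with 1 library, as in LT-HSC, that library was assumed to vary like the others, so calls from those fits carry little weight. Counts under about 30 per library, as for Plxnb1, Nrp1 in MEP, and Plxnb2 and Plxnd1 in KO MEP, limit what can be seen. Sema4a in KO MEP also went down to 13.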
